A study of Homo sapiens with 12 samples.

Results

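The genes described here are 10 members of the BCL2 family, the regulators of cell death at the mitochondrion, which were taken by gene symbol from the 16705 genes of the expression table. All 10 were present, and all 10 passed the filter on low expression. They are the pro-survival genes MCL1 and BCL2L1, the effectors BAX and BAK1, and the BH3-only genes BCL2L11, BID, BIK, BBC3, PMAIP1 and BMF. Human liver spheroid co-cultures were either left untreated or exposed to 1% total parenteral nutrition (TPN) for 24 h or 144 h, and RNA of each of these 4 groups was sequenced in 3 libraries, 12 in all. Spheroids of all 4 groups were made from HepG2/C3A cells, a hepatocyte-like clone of a hepatoma line, together with LX-2 cells, an immortalized stellate cell line of human liver, and many spheroids were pooled for a library. Each cell type was thus represented by 1 established line, and liver macrophages, endothelial cells and leukocytes were not added. TPN is an infusion for patients who cannot be fed through the gut and combines glucose, a lipid emulsion and amino acids with electrolytes, vitamins and trace elements.

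Pro-survival members of the family bind and restrain the other members at the outer mitochondrial membrane. BH3-only members are raised or activated by different stresses and either occupy the pro-survival proteins or activate BAX and BAK1 directly, which then open pores that release cytochrome c and start the caspase cascade. In hepatocytes the family is known for the dependence of these cells on MCL1 and BCL-XL, the long product of BCL2L1, and for the cleavage of BID, through which death receptors reach the mitochondrion. Many members are also controlled as proteins, by cleavage, phosphorylation or degradation, which RNA levels do not show.

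Values are FPKM, the number of fragments of a gene scaled by transcript length and by the mapped fragments of the library, so levels of different genes are compared per transcript length. Tests used log2(FPKM + 0.1), and log2 fold changes are on that scale, which understates the change of genes with low expression. A gene was called higher or lower at a limma adjusted p value below 0.05, and a DEG also had an absolute log2 fold change above 0.58. From the steps between low FPKM values a library was estimated to hold about 1.79e+07 fragments, with libraries at 0.978 to 1.04 times the common depth. At this depth and with annotated transcript lengths, the lowest value of BIK rested on about 28.3 fragments and that of PMAIP1 on about 51, whereas the lowest values of MCL1 and BCL2L1 rested on about 2870 and 4200 fragments. The labels give replicate numbers only, while the study describes its sequencing data as drawn from independent experiments. The p values measure the spread between these libraries, part of which may be technical.

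Among the members chosen here, BAX and BCL2L1 had the highest levels in every group and MCL1 followed them in every group. Other genes of the family, such as BNIP3, are not part of this order. In untreated spheroids at 24 h mean levels were 133.8 FPKM for BAX, 116.9 for BCL2L1 and 43.29 for MCL1, and the libraries of BAX and BCL2L1 overlapped. BAK1 and BID came next with 16.43 and 14.1 FPKM, and the remaining members lay between 7.46 FPKM for BBC3 and 1.913 FPKM for PMAIP1. No other neighbours in that order overlapped in untreated spheroids at 24 h. In spheroids exposed to TPN for 144 h the mean level of MCL1 was 87.83 FPKM, beside 106.4 for BAX and 105.7 for BCL2L1. The lowest member at 144 h was BIK, with 2.473 FPKM in untreated and 2.7 FPKM in exposed spheroids, and in untreated spheroids its libraries overlapped with those of PMAIP1.

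**Figure D1:**
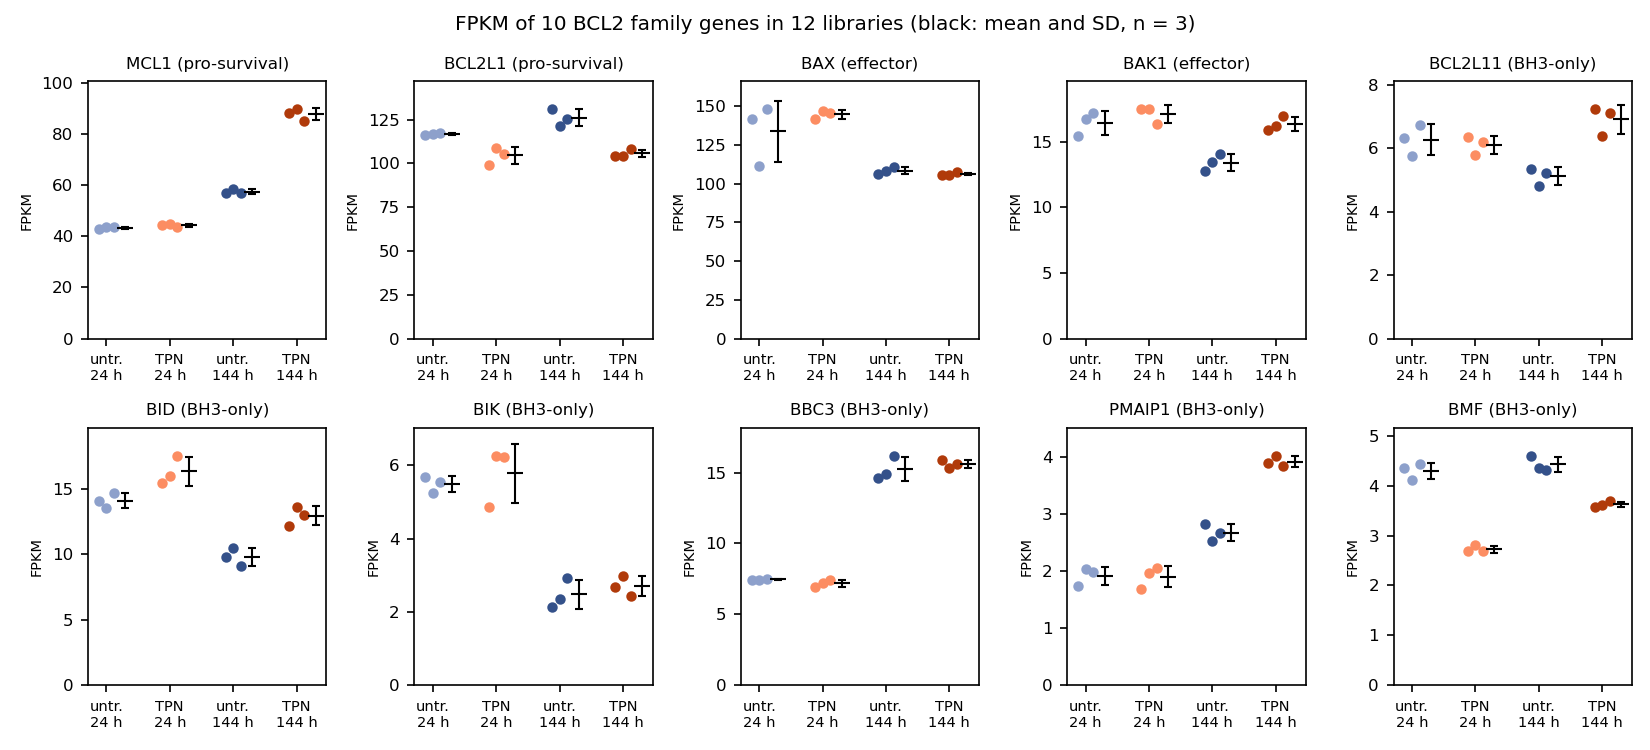
FPKM of the 10 genes in the 12 libraries, 1 panel per gene with FPKM from 0 on the vertical axis and the 4 groups on the horizontal axis, where dots are libraries and black marks are the mean and SD of 3 libraries. MCL1 reached 85.25 to 89.86 FPKM in spheroids exposed for 144 h, above the 9 other libraries, and BMF was lowest in the 3 libraries exposed for 24 h, at 2.69 to 2.81 FPKM.

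The first question was whether TPN changed the expression of these genes after a short and after a long exposure. After 24 h, 0 of the 10 genes were higher in exposed spheroids and 2 were lower, BMF and BCL2L1. At an unadjusted limma p value below 0.05, 1 gene was higher, BID, and 2 were lower. Of all 11713 genes tested, 10.5% were called at 24 h, 5.04% higher and 5.46% lower, so the number of members called was near the background. After 144 h, 5 genes were higher, in the order of their log2 fold change MCL1, PMAIP1, BCL2L11, BID and BAK1, and 2 were lower, again BMF and BCL2L1. At 144 h, 24.2% of all genes were called higher and 28.3% lower, 52.5% together. The median log2 fold change of the 10 genes was 0.012 at 24 h and 0.21 at 144 h, beside -0.0045 and -0.018 over all genes tested. BMF was the only DEG of the family at 24 h, when 0.914% of all genes were DEGs, and MCL1 the only one at 144 h, when 9.48% were. The 3 exposed libraries lay wholly on one side of the 3 untreated libraries for 4 members at 24 h and for 7 at 144 h, where 29.9% and 57.3% of all genes did so. For each of these an exact two-sided permutation test of 3 against 3 values gave p = 0.1, the smallest that the design allows.

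**Figure D2:**
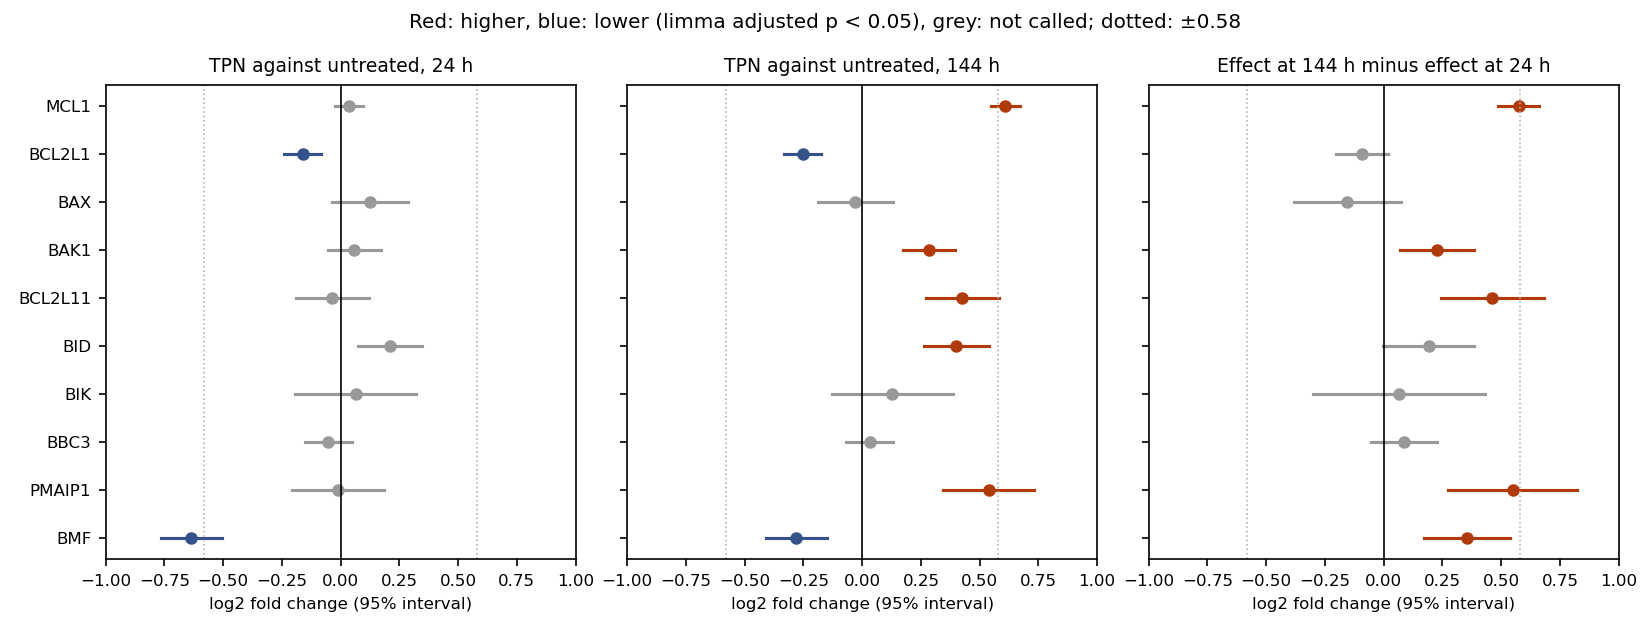
Log2 fold change of each gene for TPN against untreated spheroids at 24 h and 144 h, and the effect at 144 h minus that at 24 h, with dots for the limma estimate, lines for its 95% interval and dotted lines at an absolute value of 0.58. Red and blue mark higher and lower genes at an adjusted p value below 0.05, and MCL1 moved from 0.035 at 24 h to 0.61 at 144 h while BCL2L1 was below 0 at both times.

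MCL1 (gene 4170, chromosome 1, 150574558 to 150579610), a short-lived pro-survival protein that binds BH3-only proteins and BAK1, was measured at 42.82, 43.57 and 43.48 FPKM in untreated spheroids at 24 h and at 44.36, 44.92 and 43.82 FPKM in spheroids exposed for 24 h. After 144 h it was 57.08, 58.58 and 56.97 FPKM in untreated and 88.39, 89.86 and 85.25 FPKM in exposed spheroids. At both times every exposed library was above every untreated library, but at 24 h the groups were about 1 FPKM apart. The log2 fold change was 0.035 at 24 h (95% interval -0.025 to 0.096, limma adjusted p = 0.498) and 0.61 at 144 h (standard error 0.028, limma adjusted p = 1.33e-09), a rise of 1.53-fold on the tested scale. MCL1 was a DEG at 144 h under 23 of 23 alternative settings, with log2 fold changes from 0.592 to 0.630.

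BCL2L1 (gene 598, chromosome 20, 31664452 to 31724387), which encodes the pro-survival protein BCL-XL and, by other splicing, a short pro-apoptotic form, changed in the opposite direction. It was measured at 116.44, 116.58 and 117.63 FPKM in untreated and at 99.28, 108.83 and 105.48 FPKM in exposed spheroids at 24 h. At 144 h the values were 131.06, 121.42 and 125.49 FPKM in untreated and 104.34, 104.49 and 108.21 FPKM in exposed spheroids. Exposed libraries were below all untreated libraries at both times. BCL2L1 fell by 0.16 on the log2 scale at 24 h (limma adjusted p = 0.0108) and by 0.25 at 144 h (limma adjusted p = 5.54e-05), and both calls held under 23 of 23 alternative settings. The table has 1 value per gene, so the splice forms of BCL2L1, MCL1 and BCL2L11 were not separated.

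The ratio of MCL1 to BCL2L1 followed from these values. At 24 h it was 0.37 ± 0.00306 (mean ± SD, n = 3) without TPN and 0.425 ± 0.0189 with TPN, and at 144 h these means were 0.457 ± 0.0236 and 0.832 ± 0.0385. Exposed libraries had the higher ratio at both times without overlap, 0.413 to 0.447 against 0.368 to 0.374 at 24 h and 0.788 to 0.86 against 0.436 to 0.482 at 144 h. At 24 h the sum of both genes was 159.26 to 161.11 FPKM without TPN and 143.64 to 153.75 FPKM with TPN, lower in all exposed libraries. The order was the reverse at 144 h, with 180.00 to 188.14 FPKM without TPN and 192.73 to 194.35 FPKM with TPN.

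**Figure D3:**
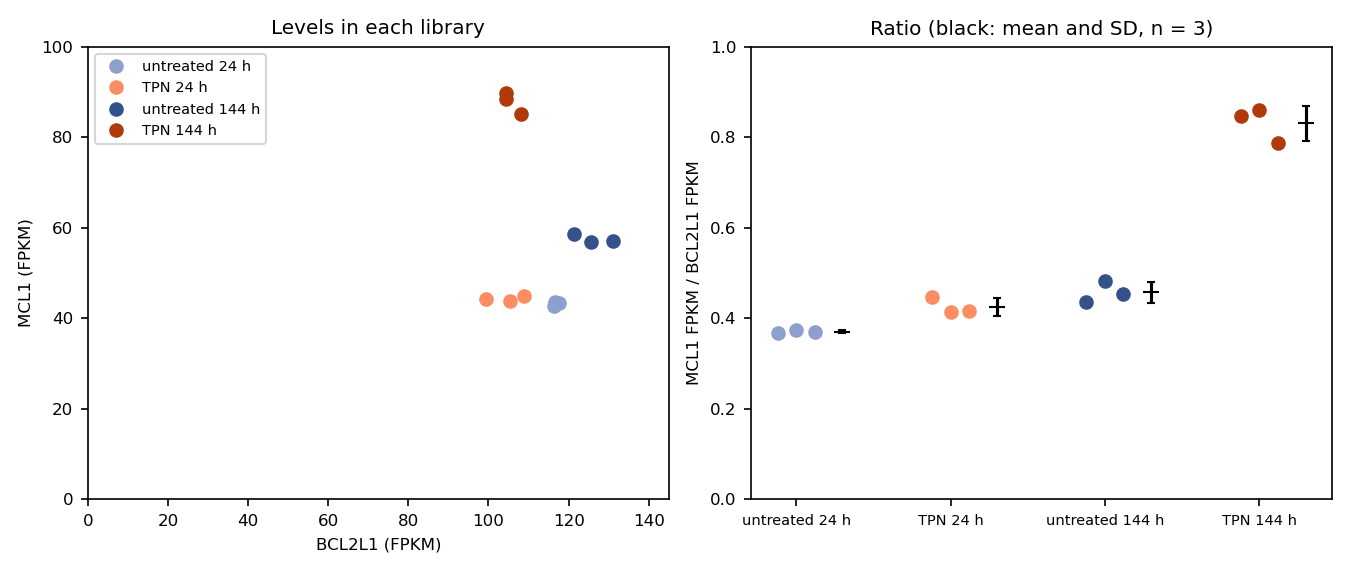
MCL1 FPKM against BCL2L1 FPKM in each library, and their ratio by group with dots for libraries and black marks for the mean and SD of 3 libraries. The 3 libraries exposed for 144 h lie apart at ratios of 0.788 to 0.86, and the 9 others lie between 0.368 and 0.482.

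BAX (gene 581, chromosome 19, 48954825 to 48962632), the effector that moves from the cytosol to the mitochondrion, was not called at either time. It was measured at 141.82, 111.28 and 148.29 FPKM in untreated and at 141.75, 146.95 and 145.85 FPKM in exposed spheroids at 24 h. At 144 h it was 106.46, 108.35 and 110.76 FPKM in untreated and 105.97, 105.77 and 107.33 FPKM in exposed spheroids. The groups overlapped at both times, and untreated replicate 2 at 24 h was lower than the other libraries of its time. Log2 fold changes were 0.13 at 24 h (95% interval -0.036 to 0.29, limma adjusted p = 0.341) and -0.029 at 144 h (95% interval -0.19 to 0.13, limma adjusted p = 0.767). Without untreated replicate 2 the value at 24 h was -0.0019 (limma adjusted p = 0.986).

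BAK1 (gene 578, chromosome 6, 33572552 to 33580296), the effector that resides in the mitochondrial membrane, was measured at 15.40, 16.69 and 17.19 FPKM in untreated and at 17.48, 17.47 and 16.33 FPKM in exposed spheroids at 24 h, and the groups overlapped. After 144 h the values were 12.73, 13.42 and 14.07 FPKM in untreated and 15.85, 16.21 and 16.94 FPKM in exposed spheroids, where all exposed libraries were higher. The log2 fold change was 0.058 at 24 h (limma adjusted p = 0.555) and 0.28 at 144 h (standard error 0.052, limma adjusted p = 0.000438). The ratio of BAX to BAK1 at 144 h was 8.1 ± 0.247 without TPN and 6.52 ± 0.175 with TPN, without overlap.

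The BH3-only genes differed among themselves in direction and in time. The promoters of 3 of them are shown because BMF was lower at both times whereas PMAIP1 and BCL2L11 were higher at 144 h only. The sequences are the 250 bases before the annotated gene start in RefSeq on GRCh38.p14, read 5′ to 3′ on the gene's strand, at chr15:40108880-40109129 for BMF (minus strand, the first of its entries), chr18:59899746-59899995 for PMAIP1 (plus strand) and chr2:111120664-111120913 for BCL2L11 (plus strand). Capitals mark matches on either strand to the SP1 motif GGGCGG, the CRE half-site TGACG that ATF and CREB factors bind, the FOXO motif TGTTTAC, the CCAAT box CCAAT and the TATA box TATAAA, none of which overlapped another match in these promoters.
BMF: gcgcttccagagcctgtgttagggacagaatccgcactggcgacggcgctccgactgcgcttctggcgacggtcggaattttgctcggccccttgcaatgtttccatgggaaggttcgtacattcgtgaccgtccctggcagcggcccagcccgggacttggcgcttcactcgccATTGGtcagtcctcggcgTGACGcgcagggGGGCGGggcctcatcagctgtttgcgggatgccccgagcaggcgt
PMAIP1: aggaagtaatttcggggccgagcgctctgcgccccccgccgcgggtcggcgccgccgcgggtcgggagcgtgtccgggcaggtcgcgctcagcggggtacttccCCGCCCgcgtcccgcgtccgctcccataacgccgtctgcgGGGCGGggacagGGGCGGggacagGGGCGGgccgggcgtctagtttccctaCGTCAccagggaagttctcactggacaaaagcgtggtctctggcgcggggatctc
BCL2L11: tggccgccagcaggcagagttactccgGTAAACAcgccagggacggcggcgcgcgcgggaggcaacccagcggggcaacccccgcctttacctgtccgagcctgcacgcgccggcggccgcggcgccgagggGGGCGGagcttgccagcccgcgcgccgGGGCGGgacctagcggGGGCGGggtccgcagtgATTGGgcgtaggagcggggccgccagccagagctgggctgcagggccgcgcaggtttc

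PMAIP1 had 4 matches to the SP1 motif, BCL2L11 had 3 and BMF had 1, and 42.6% of the 35116 promoter entries of the same length held at least 1. BMF and PMAIP1 each had 1 CRE half-site, found in 21.2% of entries, and BMF and BCL2L11 each had 1 CCAAT box, found in 32% of entries. BCL2L11 had 1 FOXO match, found in 2.98% of entries. A TATA box, found in 10.7% of entries, was matched in 0 of the 3 promoters. A match is a run of letters and was not tested for binding. Entries were found for 8 of the 10 genes, all but MCL1 and BIK.

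BMF (gene 90427, chromosome 15, 40087890 to 40108879), which is held at the cytoskeleton and released by loss of attachment, was measured at 4.35, 4.11 and 4.43 FPKM in untreated and at 2.69, 2.81 and 2.69 FPKM in exposed spheroids at 24 h. The values of 144 h were 4.61, 4.36 and 4.32 FPKM in untreated and 3.58, 3.62 and 3.69 FPKM in exposed spheroids. All exposed libraries were below all untreated libraries at both times, with the wider gap at 24 h. BMF fell by 0.64 on the log2 scale at 24 h (standard error 0.060, limma adjusted p = 1.13e-05) and by 0.28 at 144 h (standard error 0.060, limma adjusted p = 0.00139). It was called at 24 h in 22 of 22 alternative settings and was a DEG in 21 of these, with log2 fold changes from -0.666 to -0.506.

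PMAIP1 (gene 5366, chromosome 18, 59899996 to 59904305) encodes NOXA, which binds chiefly MCL1 and is a target of p53 and of the integrated stress response. It was measured at 1.73, 2.03 and 1.98 FPKM in untreated and at 1.69, 1.96 and 2.05 FPKM in exposed spheroids at 24 h, and these groups overlapped. Its values after 144 h were 2.82, 2.52 and 2.66 FPKM in untreated and 3.89, 4.02 and 3.83 FPKM in exposed spheroids, without overlap. The log2 fold change was -0.011 at 24 h (95% interval -0.21 to 0.18, limma adjusted p = 0.961) and 0.54 at 144 h (standard error 0.090, limma adjusted p = 0.000215). PMAIP1 had the lowest mean level of the members chosen here at 24 h, with an estimated counting error of 14% at its lowest value.

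BCL2L11 (gene 10018, chromosome 2, 111120914 to 111168745), which encodes BIM, a BH3-only protein that binds all pro-survival members, was measured at 6.33, 5.75 and 6.73 FPKM in untreated and at 6.34, 5.78 and 6.19 FPKM in exposed spheroids at 24 h. At 144 h it was 5.34, 4.80 and 5.21 FPKM in untreated and 7.23, 6.38 and 7.12 FPKM in exposed spheroids. The groups overlapped at 24 h and were apart at 144 h. Log2 fold changes were -0.036 at 24 h (limma adjusted p = 0.822) and 0.43 at 144 h (standard error 0.072, limma adjusted p = 0.000228).

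BID (gene 637, chromosome 22, 17732195 to 17775990), which is cleaved by caspase 8, was measured at 14.10, 13.53 and 14.67 FPKM in untreated and at 15.43, 16.03 and 17.56 FPKM in exposed spheroids at 24 h. By 144 h the values were 9.79, 10.48 and 9.08 FPKM in untreated and 12.19, 13.63 and 13.01 FPKM in exposed spheroids. Exposed libraries were above all untreated libraries at both times. The log2 fold change of 0.21 at 24 h lay at the threshold (95% interval 0.073 to 0.35, limma adjusted p = 0.0513), and it was called in 8 of 23 alternative settings, 4 of which left out TPN replicate 1 of 24 h (limma adjusted p = 0.0468), untreated replicate 2 or 3 of 144 h (0.0406 and 0.0397) or TPN replicate 1 of 144 h (0.0487). BID was higher at 144 h, with a log2 fold change of 0.40 (standard error 0.063, limma adjusted p = 0.000131).

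BBC3 and BIK were not called for TPN at either time. BBC3 (gene 27113, chromosome 19, 47220822 to 47232998) encodes PUMA, a p53 target that binds all pro-survival members. It was 7.44, 7.42 and 7.52 FPKM in untreated and 6.95, 7.18 and 7.43 FPKM in exposed spheroids at 24 h. After 144 h it stood at 14.64, 14.93 and 16.21 FPKM in untreated and 15.89, 15.32 and 15.59 FPKM in exposed spheroids. The groups overlapped at both times, and log2 fold changes were -0.054 (95% interval -0.15 to 0.046, limma adjusted p = 0.535) and 0.033 (95% interval -0.067 to 0.13, limma adjusted p = 0.577). BIK (gene 638, chromosome 22, 43110750 to 43129712), a BH3-only protein found at the endoplasmic reticulum, was 5.67, 5.25 and 5.56 FPKM in untreated and 4.86, 6.27 and 6.22 FPKM in exposed spheroids at 24 h. Libraries of 144 h gave 2.14, 2.35 and 2.93 FPKM in untreated and 2.69, 2.98 and 2.43 FPKM in exposed spheroids. Both pairs of groups overlapped, and the intervals of the log2 fold change were wide, -0.19 to 0.32 at 24 h (limma adjusted p = 0.813) and -0.13 to 0.39 at 144 h (limma adjusted p = 0.389).

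In annotation of GENCODE release 44, 7 of the 10 genes overlap another gene, 6 of them one on the opposite strand, such as ADAMTSL4 at MCL1 and MIR4435-2HG at BCL2L11. None (0) overlaps a protein-coding gene on its own strand. Libraries were made strand-specific, but whether the calculation of FPKM used strand is not given in the sources used here.

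Short and long exposure were compared by subtracting the log2 fold change of 24 h from that of 144 h, which rest on different libraries. This difference was above 0 in 5 genes and below 0 in 0 at an adjusted limma p value below 0.05, with the same 5 and 0 at an unadjusted p value below 0.05, beside 30.4% of all genes called, 14.1% above and 16.3% below 0. It was 0.57 for MCL1 (standard error 0.040, limma adjusted p = 5.76e-07), 0.55 for PMAIP1 (standard error 0.13, limma adjusted p = 0.00558) and 0.46 for BCL2L11 (standard error 0.10, limma adjusted p = 0.00395). For BMF it was 0.36 (limma adjusted p = 0.00634), since its fall was smaller at 144 h. For BAK1 it was 0.23 (limma adjusted p = 0.0329), and this call was lost when untreated replicate 2 or 3 of 24 h, TPN replicate 3 of 24 h, untreated replicate 1 or 2 of 144 h, or TPN replicate 2 or 3 of 144 h was left out (0.189 to 0.231, limma adjusted p from 0.0506 to 0.0803). The difference was 0.19 for BID (95% interval -0.0020 to 0.38, limma adjusted p = 0.125) and -0.091 for BCL2L1 (95% interval -0.20 to 0.019, limma adjusted p = 0.202).

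The second question was how these genes changed with culture time. These comparisons share libraries with those of TPN and are given as their own values. With FPKM as deposited, the median change of all genes between 24 h and 144 h, on the log2 scale, was -0.18 both without and with TPN, and 52.4% and 52.0% of genes were called lower, 72.6% and 76.2% in either direction. Under scaling by median ratios these medians were -0.0078 and -0.011, a shift of more than 0.1, so the members are given as deposited and relative to it. The shares of all genes called higher were 20.1% and 24.2%. In untreated spheroids 4 members were higher and 5 lower at 144 h as deposited, and 5 higher and 2 lower under median ratios, where 3881 genes of all were higher and 3948 lower in place of 2360 and 6138.

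BBC3 had the largest rise with time among the members, 1.02 on the log2 scale in untreated spheroids (limma adjusted p = 3.29e-10) and 1.11 in exposed spheroids (limma adjusted p = 8.38e-11), or 1.29 above the median of all genes in the latter. BIK had the largest fall, -1.13 in untreated (limma adjusted p = 1.34e-06) and -1.07 in exposed spheroids (limma adjusted p = 1.83e-06), which was -0.95 and -0.88 relative to the median. The ratio of BBC3 to BIK was 1.36 ± 0.0509 in untreated spheroids at 24 h and 6.24 ± 0.661 at 144 h (n = 3 each). MCL1 rose by 0.41 in untreated (limma adjusted p = 1.99e-08) and by 0.98 in exposed spheroids (limma adjusted p = 2.65e-12), or by 0.59 and 1.17 relative to the median. PMAIP1 rose by 0.46 (limma adjusted p = 0.000398) and 1.01 (limma adjusted p = 1.75e-07), or by 0.64 and 1.19 relative to the median. BID fell by 0.52 in untreated (limma adjusted p = 4.89e-06) and by 0.33 in exposed spheroids (limma adjusted p = 0.000275), which was -0.34 and -0.15 relative to the median. Under median ratios BID was at -0.35 (limma adjusted p = 0.000249) and -0.16 (limma adjusted p = 0.036). The directions and calls of these 5 genes held under every scaling tried, whereas the size of the change of BID in exposed spheroids rested on the scaling.

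**Figure D4:**
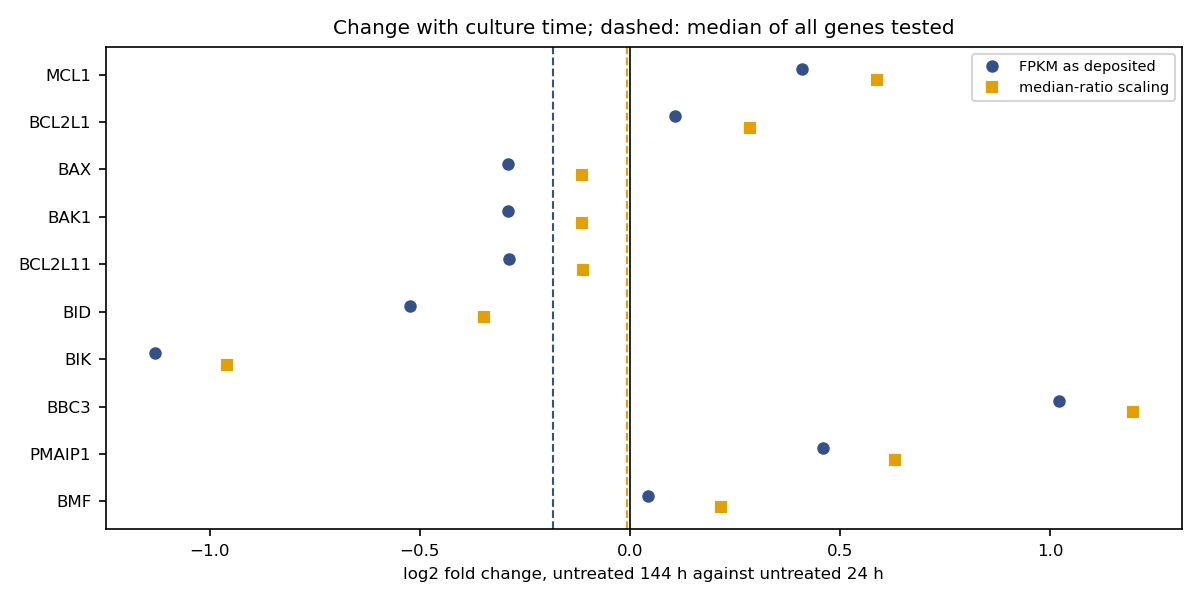
Log2 fold change of each gene between untreated spheroids at 144 h and at 24 h, with circles for FPKM as deposited, squares for median-ratio scaling, and dashed lines for the median of all genes tested in the matching colour, -0.18 and -0.0078. BBC3 lies highest and BIK lowest under both, whereas BAX, BAK1 and BCL2L11 lie close to the median of all genes.

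Of the remaining members, several calls with time depended on the scaling or on single libraries. In untreated spheroids BAX, BAK1 and BCL2L11 each had a log2 fold change of -0.29 as deposited (limma adjusted p = 0.00311, 0.000181 and 0.00264). All 3 lost the call under median ratios, with -0.11 each (limma adjusted p = 0.199, 0.0713 and 0.18). BMF was at 0.043 as deposited (limma adjusted p = 0.528) and at 0.22 under median ratios (limma adjusted p = 0.00522). BCL2L1 was at 0.11 (limma adjusted p = 0.016), a call lost without untreated replicate 1 of 144 h (0.079, limma adjusted p = 0.0788), and at 0.29 under median ratios (limma adjusted p = 9.8e-06). With TPN, BAX fell by 0.45 (limma adjusted p = 9.21e-05), which was -0.26 relative to the median and -0.27 under median ratios (limma adjusted p = 0.00535). BMF rose by 0.40 (limma adjusted p = 3.16e-05), or 0.58 relative to the median. BCL2L11 was at 0.18 there (limma adjusted p = 0.0395), and this call was lost without TPN replicate 2 or 3 of 24 h (limma adjusted p = 0.139 and 0.0609) or TPN replicate 1 or 3 of 144 h (0.131 and 0.11), while it was at 0.35 under median ratios (limma adjusted p = 0.000534). BAK1 was at -0.065 in exposed spheroids (limma adjusted p = 0.268) and at 0.11 under median ratios (limma adjusted p = 0.0739). BCL2L1 was at 0.017 there (limma adjusted p = 0.688), but was called higher under median ratios (0.19, limma adjusted p = 0.000258) and quantile normalization (0.18, limma adjusted p = 0.000268).

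The pro-survival genes took 42.1% to 49.1% of the summed FPKM of the 10 genes at 24 h and 52.5% to 54.3% at 144 h. The effectors took 39.2% to 46.7% at 24 h and 33.7% to 35.9% at 144 h. The libraries of the 2 times did not overlap in either share. BAX made up most of the effector sum, so these shares largely follow single abundant genes. The values of 49.1% and 39.2% came from untreated replicate 2 of 24 h. There BAX was at 111.28 FPKM of an effector sum of 127.97, beside 141.82 and 148.29 FPKM of BAX in replicates 1 and 3. The BH3-only genes took 11.1% to 12.7% in all libraries, with the 3 exposed libraries of 144 h highest at 12.6% to 12.7%.

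Genes that act beside these members were counted in lists. Of all genes tested, 10.5% were called for TPN at 24 h, 5.04% higher and 5.46% lower. At 144 h 52.5% were called, 24.2% higher and 28.3% lower. These shares are the background for every list count of TPN below. Of 14 other BCL2 family genes 9 were tested, with 2 higher and 0 lower at 24 h, and 3 higher and 2 lower at 144 h, and with medians of 0.010 and 0.071. BNIP3L, a mitophagy receptor, rose at 144 h from 61.6 ± 0.865 to 77.6 ± 1.51 FPKM (mean ± SD, n = 3, log2 fold change 0.33, limma adjusted p = 3.85e-06). Its relative BNIP3 had a log2 fold change of 0.20 at 24 h (limma adjusted p = 0.0135), a call lost without TPN replicate 1 or 2 of 24 h (limma adjusted p = 0.0529 and 0.0534), and of 0.012 at 144 h (limma adjusted p = 0.841), where the sign turned under 2 scalings. BCL2, the pro-survival gene that gave the family its name, was low and fell at 144 h from 1.89 ± 0.265 to 1.34 ± 0.25 FPKM (log2 fold change -0.47, limma adjusted p = 0.011), a call lost without TPN replicate 1 of 144 h (-0.34, limma adjusted p = 0.0552).

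Of 9 genes of the apoptosome and caspases, 1 was higher at 24 h, and 4 were higher and 3 lower at 144 h. CASP8, the initiator that cleaves BID, had log2 fold changes of 0.20 at 24 h (limma adjusted p = 0.0276) and 0.42 at 144 h (limma adjusted p = 2.4e-05). Its first call did not hold without untreated replicate 2 or 3 of 24 h (limma adjusted p = 0.092 and 0.08) or TPN replicate 1 or 3 of 24 h (0.0665 and 0.114). Of 8 death receptor genes limma called 0 at 24 h, where 1 was higher at an unadjusted p value below 0.05, and 4 were higher and 0 lower at 144 h on either p value, led by TNFRSF10A, a receptor for TRAIL, which rose from 4.81 ± 0.536 to 6.48 ± 0.26 FPKM (log2 fold change 0.43, limma adjusted p = 0.000464). Of 7 inhibitors of apoptosis and their antagonists, 1 was lower at 24 h, while at 144 h 1 was higher and 1 lower. The higher gene was XIAP, a direct caspase inhibitor (log2 fold change 0.25, limma adjusted p = 0.00119). BIRC5, which encodes survivin and is expressed in dividing cells, fell at 144 h from 50.3 ± 1.11 to 32.6 ± 1.58 FPKM (log2 fold change -0.62, limma adjusted p = 1.28e-08). Its call at 24 h (-0.13, limma adjusted p = 0.038) was lost without any untreated replicate of 24 h or TPN replicate 1 or 2 of 24 h (limma adjusted p from 0.0575 to 0.129).

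**Figure D5:**
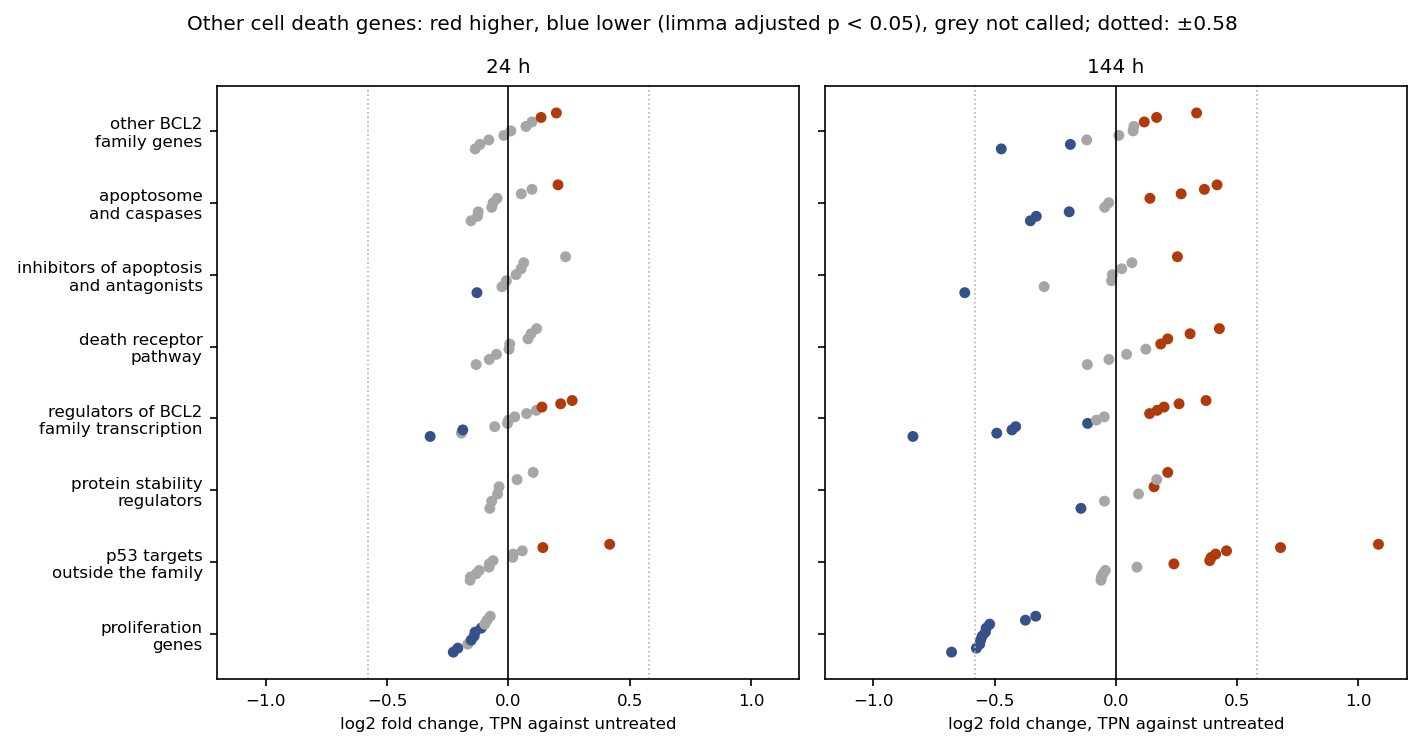
Log2 fold changes of single genes for TPN against untreated spheroids at 24 h and 144 h in 8 lists of cell death and related genes, where each dot is 1 gene, red and blue mark an adjusted p value below 0.05 and dotted lines mark an absolute value of 0.58. At 144 h all 10 proliferation genes were lower and 7 of 12 p53 targets higher, beside 28.3% and 24.2% of all genes.

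Among 12 regulators of transcription of the family, the numbers higher and lower were 3 and 2 at 24 h and 5 and 5 at 144 h, and without untreated replicate 2 of 24 h 3 were called at 24 h in place of 5. FOXO1, a factor known to drive BCL2L11 and BBC3 when insulin signaling is low, fell at 24 h from 5.81 ± 0.151 to 4.63 ± 0.259 FPKM (log2 fold change -0.32, limma adjusted p = 0.00418) and at 144 h from 6.65 ± 0.266 to 3.68 ± 0.202 FPKM (log2 fold change -0.84, limma adjusted p = 1.15e-07). FOXO3, a relative of FOXO1 on the same list, was at 0.00076 at 24 h (limma adjusted p = 0.994). At 144 h it rose by 0.17 (limma adjusted p = 0.0179), opposite to FOXO1, a call that was not followed over the alternative settings. STAT3, known to drive MCL1, had a log2 fold change of -0.056 at 24 h (limma adjusted p = 0.362) and rose at 144 h by 0.37 (limma adjusted p = 1.09e-06). ATF3, a stress-induced factor, was at 0.26 at 24 h (limma adjusted p = 0.0476), and of 12 fits without 1 library the call held in 3, those without TPN replicate 1 of 24 h or TPN replicate 1 or 2 of 144 h (limma adjusted p from 0.034 to 0.162 over all 12). Of 6 tested regulators of protein stability, limma called 0 at 24 h, where 1 was higher at an unadjusted p value below 0.05, and called 2 higher and 1 lower at 144 h. MARCHF5, a ubiquitin ligase of the mitochondrial membrane that acts on MCL1 and NOXA, rose at 144 h by 0.21 (limma adjusted p = 0.000291). BTRC, a ubiquitin ligase subunit, was at -0.14 at 144 h (limma adjusted p = 0.0422), and this call was lost in 7 of 12 fits, those without untreated replicate 3 or TPN replicate 2 of 24 h, untreated replicate 1 or 3 of 144 h, or any TPN replicate of 144 h (limma adjusted p from 0.00837 to 0.156 over all 12).

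Of 12 p53 targets outside the family, 2 were higher and 0 lower at 24 h (1 called without untreated replicate 2 or 3 or TPN replicate 1 or 3 of 24 h), while 7 were higher and 0 lower at 144 h, with a median of 0.31 then. At an unadjusted limma p value below 0.05 the numbers were 2 and 3 at 24 h and 7 and 0 at 144 h. CDKN1A, which encodes the cell cycle inhibitor p21, was at 0.020 at 24 h (limma adjusted p = 0.826) and rose at 144 h from 35.1 ± 1.66 to 74.4 ± 2.97 FPKM (log2 fold change 1.08, limma adjusted p = 1.91e-10). GDF15, a secreted stress cytokine, rose by 0.42 at 24 h (limma adjusted p = 5.22e-05) and by 0.68 at 144 h (limma adjusted p = 4.8e-08). Of the p53 targets within the family, PMAIP1 rose at 144 h, and BBC3 and BAX were not called. Hepatoma cells of the HepG2 line, from which C3A was cloned, carry wild-type p53.

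The cell makeup of the spheroids was read from markers, and in bulk RNA fewer cells of a type and less RNA per cell cannot be told apart. Hepatocyte markers were led by ALB, which averaged 3830 to 6044 FPKM, and CYP7A1 was at or near 0 in every group. The summed FPKM of 8 stellate cell markers was 91.7 to 96.8 in untreated and 78.8 to 82.9 in exposed spheroids at 24 h, and 53.3 to 58.7 and 48.5 to 50.9 at 144 h, so it was lower with TPN and with time. ACTA2 made up most of this sum, at 57.8 FPKM in untreated spheroids at 24 h, and did not pass the test after 144 h (-0.076 on the log2 scale, limma adjusted p = 0.13). Of 6 stellate cell markers tested, 1 was lower with TPN at 24 h and 4 were lower at 144 h, 3 of them DEGs. The medians were -0.10 and -0.73. With time in untreated spheroids 5 were lower, with a median of -2.24, where 52.4% of all genes were lower. LUM was at or near 0 in every group, with a mean of at most 0.0433 FPKM. Of 7 hepatocyte markers tested, 2 fell at 24 h and 7 at 144 h with TPN. Of 10 proliferation genes, 6 fell at 24 h and 10 at 144 h, with TOP2A, a topoisomerase of dividing cells, at -0.23 (limma adjusted p = 0.00108) and -0.68 (limma adjusted p = 4.65e-09). The summed endothelial markers stayed at 1.07 FPKM or less. Of the macrophage and leukocyte markers, MARCO was at 0 in all libraries of 24 h and averaged at most 0.0167 FPKM at 144 h, while CD68, which other cells also express, averaged 46.7 to 63.7 FPKM. The part of these changes in those of the BCL2 family genes was not tested.

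As a description, the genes whose log2(FPKM + 0.1) was most like that of MCL1 over the 12 libraries were AKAP12, SEMA4B and ATP6V0D2, with Pearson correlations of 0.999, 0.995 and 0.995. Those most like BMF were ID1, SKIL and FSTL3, with 0.981, 0.963 and 0.957. The 12 libraries form 4 groups, and these values therefore mostly compare group means.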

How the data were processed

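The authors filtered DNBSEQ reads with SOAPnuke, mapped them with HISAT2 (2.0.4) to GRCh38.p13 and with Bowtie2 (2.2.5) to transcripts, and calculated FPKM with RSEM. The deposited FPKM values, rounded to 2 decimals and 1 column per library, were used without further scaling, and 20 lines of spilled annotation text were left out. Columns of KEGG and other annotation were not used. After a filter at a mean of 0.5 FPKM, 11713 genes entered 1 limma model of the 4 groups on the log2(FPKM + 0.1) scale (limma 3.58.1, R 4.3.3, eBayes with an intensity trend). Adjustment of p values followed Benjamini and Hochberg and ran over all genes tested, separately in each of 5 comparisons. The study's own DEGs came from DESeq2 on counts, which were not used here. Library FPKM summed to 561657 to 583722.

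The 10 genes, the lists beside them and the tests were chosen with earlier results of these data known. Of each list, genes are named that were DEGs for TPN at either time or that rose or fell most among those called at a time. FOXO3 is named outside this rule, beside FOXO1. Not every gene that meets this rule is reported here. Of the markers, the highest and the lowest are named, with MARCO and CD68 among them, and for each member that was a DEG for TPN the 3 genes with the most similar pattern. Depth was estimated from the FPKM steps of 13 short genes with transcript lengths of GENCODE release 44 (95% interval 1.74e+07 to 1.84e+07 fragments). The test was tried on simulated data. Alternatives changed the pseudocount, filter, scaling, trend, block, libraries and fold threshold. Python 3.11.15 with pandas 2.3.3, scipy 1.17.1 and matplotlib 3.10.9 was used for tables and figures.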

Additional observations from a re-analysis of the deposited data

Results flagged for a closer look

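In 5 of the 10 genes the TPN effect after 144 h was called different from that after 24 h, by a test of the difference itself. Subtracting the 24 h log2 fold change from that of 144 h gave 0.57 for MCL1 (limma adjusted p = 5.76e-07), 0.55 for PMAIP1 (limma adjusted p = 0.00558), 0.46 for BCL2L11 (limma adjusted p = 0.00395), 0.36 for BMF (limma adjusted p = 0.00634) and 0.23 for BAK1 (limma adjusted p = 0.0329). The call of BAK1 was lost in 7 of 12 fits without 1 library (limma adjusted p from 0.0141 to 0.0803 over all 12). Of all genes tested, 30.4% passed the same test.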

How the results depend on the processing

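The number of members called for TPN at 144 h was 7 in each of the 12 fits without 1 library, and it ranged from 2 to 3 at 24 h, from 4 to 5 for the difference between the times, from 8 to 9 for time in untreated and from 7 to 8 for time in exposed spheroids. With the fold-change threshold added to the call, the numbers were 1 at 24 h and 1 at 144 h, beside 0.914% and 9.48% of all genes. They were 0 for the difference (5 without the threshold), 2 for time in untreated and 4 for time in exposed spheroids. For the difference and for time the share of all genes passing this threshold is not given here, so these counts have no background. Under median ratios 4 members passed the threshold for time in untreated spheroids. Without the threshold 5 were higher and 2 lower there, beside 66.8% of all genes called. When the filter was raised to a mean of 5 FPKM, 7 members were tested, since BIK, PMAIP1 and BMF left the test. Of these, 3 were called for the difference and 5 for time in exposed spheroids, beside 35.8% and 82.5% of the 8337 genes then tested.

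Values near 0 changed sign. BAK1 with time in exposed spheroids was at 0.11 under median ratios and 0.093 under quantile normalization, BCL2L1 in the same comparison (called at 0.19 and 0.18 under median ratios and quantile normalization, limma adjusted p = 0.000258 and 0.000268) at -0.0039 with libraries scaled to the same FPKM sum, -0.020 without TPN replicate 1 of 24 h and -0.00055 without TPN replicate 3 of 144 h. At 24 h BAX was at -0.0019 and CDKN1A at -0.00063 without untreated replicate 2, BCL2L11 at 0.015 without untreated replicate 3 and 0.0017 without TPN replicate 2, and PMAIP1 at 0.016 under quantile normalization, 0.031 and 0.014 without untreated replicates 2 and 3 and 0.067 without TPN replicate 1. The difference for BIK was at -0.054 without TPN replicate 1 of 24 h, -0.029 without untreated replicate 1 of 144 h and -0.0064 without TPN replicate 2 of 144 h. BNIP3 at 144 h was at -0.0023 with the same FPKM sum and -0.020 under quantile normalization. With each library left out in turn, these results reached 0.046 for BCL2L1, 0.21 for BAX, 0.038 for CDKN1A, -0.096 for BCL2L11, -0.078 for PMAIP1 and 0.19 for BIK at the other end. The cause was not tested.

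With the replicate number as a block, the numbers of members called were 2, 7, 5, 9 and 8, as without the block. They are for TPN at 24 h and at 144 h, the difference, and time in untreated and in exposed spheroids. Of all genes, 10.5%, 52.3%, 30.3%, 72.5% and 75.8% were called in the same comparisons with the block. Among the genes named, BTRC at 144 h lost its call (limma adjusted p = 0.0537). Libraries with the same number did not deviate together throughout (correlations of deviations of 0.0908, -0.083 and 0.103 between untreated and exposed libraries at 24 h, and of 0.0163, -0.013 and 0.0559 at 144 h). Between the times they were 0.0941, 0.0202 and 0.151 without TPN and 0.0859, -0.00704 and 0.141 with TPN. Replicate 3 was above 0 in every pair of groups, and replicates 1 and 2 were not. The number was therefore not taken as a pairing. Leaving out single libraries gave 0 to 2 caspase genes, 0 to 1 inhibitors of apoptosis, 0 to 2 other family genes, 1 to 3 p53 targets, 3 to 5 transcription regulators and 3 to 7 proliferation genes called at 24 h, and 3 to 5 other family genes at 144 h, so these small counts rest on single libraries. Depth limits BIK most, with a counting error of 18.8% at its lowest value.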
